A study of Sus scrofa with 16 samples.

Results

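The genes that coat lipid droplets in liver cells and release the fat stored in them were examined in the livers of 16 pigs kept on 3 dietary fats. The set holds 10 gene symbols, PLIN2, PLIN3, PLIN5, ABHD5, PNPLA2, PNPLA3, CIDEB, CIDEC, MGLL and G0S2, which were chosen by name, with the measured diet differences of these livers known, and matched to the gene identifiers of the count tables by their annotated pig symbol. PLIN5 led to 2 identifiers, as described with the coat genes, so the 10 symbols stand for 11 of the 25880 genes counted. ABHD5 and the identifier that the study names PLIN5 are among the diet genes that the study itself listed from these livers. Their values in those diet comparisons are therefore given as a description, with no p and with their calls only counted beside those of all genes.

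Group R (5 pigs, 3 females and 2 males) received rapeseed oil, group B (5 pigs, 2 females and 3 males) beef tallow and group C (6 pigs, 3 females and 3 males) coconut oil. The study describes the females as gilts and the males as barrows, which are castrated males. All 16 pigs were crosses of (Polish Landrace x Polish Large White) sows with (Duroc x Pietrain) boars and were fattened from about 60 kg to 118 kg on feeds of like energy and protein content. Ages were not given in the sources used here. There was no group without added fat, so each diet is compared only with the other 2, and the 3 comparisons share their pigs. RNA was sequenced by a 3′-end method, in which each transcript yields about 1 fragment whatever its length.

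Lipid droplets are the organelles in which cells keep neutral fat, mainly triglyceride, behind a phospholipid monolayer covered with proteins. Perilipins (PLIN genes) coat this surface and limit the access of lipases, while CIDE proteins act in droplet fusion and, in the liver, in loading fat onto lipoproteins. Triglyceride is cleaved step by step: PNPLA2 (adipose triglyceride lipase) takes off the first fatty acid, with ABHD5 (CGI-58) as its co-activator and G0S2 as its inhibitor, and MGLL (monoglyceride lipase) acts on the monoglyceride at the end. In liver, the fatty acids so released are oxidised, re-esterified or secreted in lipoproteins, and RNA levels do not report the activity of these enzymes, which is largely set by protein contacts and phosphorylation.

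The reads falling on genes numbered 705669 to 1767671 per liver (median 1018321.5), and levels are given as counts per 1000000 reads (CPM) after normalization between libraries. Pigs are called by group and number, such as B3. At this depth 1 CPM is about 1 read, so genes near 10 CPM rest on few reads. Pig B3 stood apart from the other 15 on the first principal component (19.2% of the variance). Differences involving group B, and those between the sexes, were also computed without B3 for the 8 identifiers that passed the filter on low counts. They were not computed without it for PNPLA3, CIDEC and MGLL, nor was the interaction of diet and sex. Reads with several alignments, which were counted on no gene, took up 15.4% to 38.1% of the tallied reads per pig, with medians of 26.5%, 22.2% and 19.8% in groups R, B and C, and their part in the results was not tested. All 10 hepatocyte markers were detected in each group. They summed to 145701 to 200547 CPM in group R, 89813 to 196561 CPM in group B and 136981 to 220004 CPM in group C. ALB was lowest in a pig of group B, at 26640 CPM, beside a mean of 87249.5 CPM over the 16 pigs. TTR was lower in group B than in group R (log2 fold change -0.78 ± 0.17, SE, edgeR adjusted p = 0.0426), a comparison for which the study had listed it. The hepatocyte markers did not move together, since 4 of the 9 tested in that comparison were higher and 5 lower. CPS1 was higher in group B but did not pass (log2 fold change 0.83 ± 0.20, SE, edgeR adjusted p = 0.0627). Groups R and B did not overlap in CPS1, beside 4.59% of all genes. Of the adipocyte markers, LEP had no read in any pig, PLIN1 had at most 1 read per pig, and the summed level of the 7 markers with an identifier was 68.2 to 87.6 CPM in group R, 45.3 to 109 CPM in group B and 74.5 to 111 CPM in group C. The summed Kupffer cell markers ranged from 643 to 1253 CPM in group R, from 905 to 1739 CPM in group B and, for group C, from 652 to 930 CPM, with CD163 higher in group B than in group R (log2 fold change 0.79 ± 0.17, SE, edgeR adjusted p = 0.0414). Of the 9 Kupffer cell markers tested in that comparison, 6 were higher and 3 lower, and only CD163 passed. The 7 endothelial markers with an identifier summed to 296 to 473 CPM in group R, 381 to 483 CPM in group B and, for group C, 339 to 425 CPM, with LYVE1 higher in group B than in group R (log2 fold change 0.88 ± 0.20, SE, edgeR adjusted p = 0.0495). Of the 5 endothelial markers tested in that comparison, 3 were higher and 2 lower, and only LYVE1 passed. For hepatocyte, Kupffer cell, endothelial and stellate cell markers, their part in the differences described below was not tested. In RNA of whole liver, fewer cells of a type and less RNA per cell cannot be told apart.

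The members covered a wide span of levels. Since each transcript gives about 1 fragment, CPM values of different genes can be set side by side without division by length. Reads on no annotated gene took up 15.9% to 30.1% of the tallied reads per pig. How many of them belong to each member was not tested, so the order holds for counted reads only. The mean over the 16 pigs was highest for ENSSSCG00000013514 (242 CPM), which the study names PLIN5 and whose identity is uncertain, followed by ABHD5 at 208 CPM and CIDEB at 107 CPM. PLIN2 (64.4 CPM), PLIN3 (49.9 CPM), PNPLA2 (37.6 CPM) and G0S2 (25.7 CPM) formed a middle range. PLIN5 lay at 9.80 CPM, and PNPLA3 (3.82 CPM), CIDEC (3.09 CPM) and MGLL (1.96 CPM) were at the edge of detection. Neighbours in this order were often not separated within a liver: ENSSSCG00000013514 exceeded ABHD5 in 9 of 16 pigs and PLIN2 exceeded PLIN3 in 8 of 16, whereas ABHD5 exceeded CIDEB in 14 of 16 and G0S2 exceeded PLIN5 in 10 of 16. A co-activator of triglyceride lipolysis was thus counted several times as often as the lipase it activates.

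**Figure D1:**
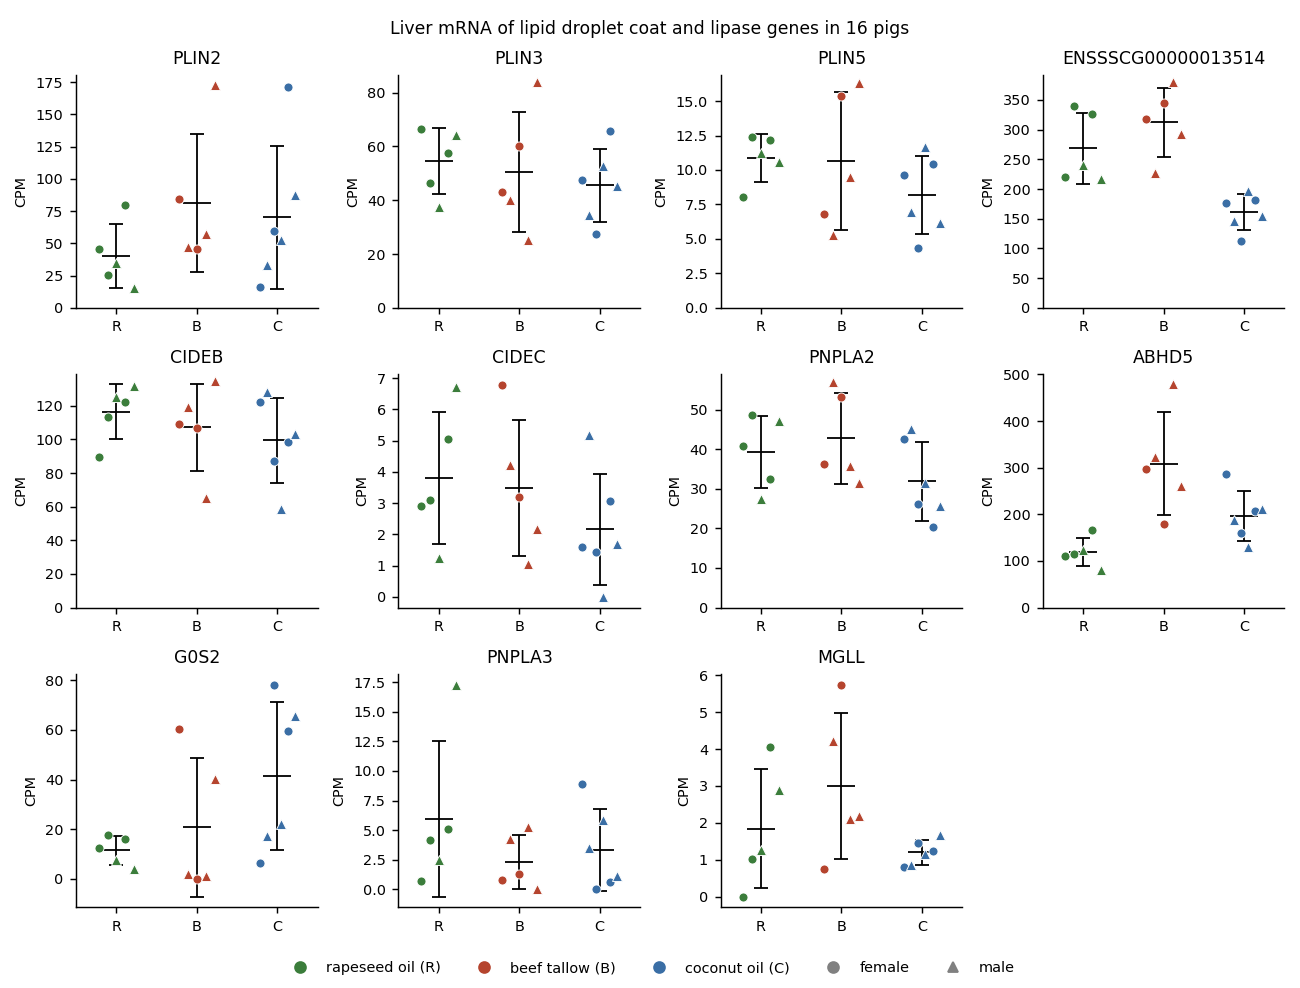
Level of each of the 11 gene identifiers in each pig, in CPM on linear axes, by diet (R rapeseed oil, B beef tallow, C coconut oil), with the sexes as separate symbols and bars for the mean ± SD of 5, 5 and 6 pigs. ABHD5 is the gene in which all 5 pigs of group B lie above all 5 of group R, ENSSSCG00000013514 the gene in which all 6 pigs of group C lie below the other 10, and G0S2 and PLIN2 vary most within a diet among the genes above 20 CPM.

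ABHD5 (ENSSSCG00000011297, chromosome 13 from 27006331 to 27053760 in RefSeq's annotation of Sscrofa11.1) encodes the co-activator of PNPLA2. In group R it was counted at 111, 116, 124, 166 and 80.7 CPM. In group B it was counted at 297, 323, 180, 481 and 261 CPM. All 5 pigs of group B lay above all 5 of group R, and the highest pig of group R was close to the lowest of group B. In group C the lowest pig was at 130 CPM, the median at 198 CPM and the highest at 287 CPM, between the other groups, and 4 of these 6 exceeded each pig of group R. The means were 119 ± 30.8 CPM in group R, 308 ± 110 CPM in group B and 197 ± 53.6 CPM in group C (SD). The level was 2.57-fold higher in group B than in group R (log2 fold change 1.36 ± 0.25, SE) and, in group C, 1.66-fold that of group R (log2 fold change 0.73 ± 0.20, SE). Both are comparisons for which the study had listed ABHD5. Between groups C and B, a comparison for which it had not been listed, the log2 fold change was -0.63 ± 0.23 (SE) and did not pass the test (edgeR adjusted p = 0.315). Leaving out 1 pig at a time gave log2 fold changes between 1.15 and 1.51 for group B against group R, and 1.505 without B3.

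PNPLA2 (ENSSSCG00000012841, chromosome 2 from 513065 to 517962), the lipase that ABHD5 activates, did not differ between diets beyond the spread of the pigs. It was counted at 40.8, 48.5, 27.5, 32.4 and 47.1 CPM in group R. Group B gave 36.2, 57.1, 53.04, 35.8 and 31.6 CPM, and group C ranged from 20.3 to 45.0 CPM with a median of 28.8 CPM. The 3 groups overlapped. The log2 fold change was 0.12 ± 0.23 (SE, edgeR adjusted p = 0.852) for group B against group R. For group C it was -0.31 ± 0.23 against group R (edgeR adjusted p = 0.611) and -0.43 ± 0.24 against group B (edgeR adjusted p = 0.510). The ratio of ABHD5 reads to PNPLA2 reads within a liver had a median of 2.71 in group R (range 1.71 to 5.13), 8.21 in group B (range 3.40 to 13.4) and 6.41 in group C (range 4.11 to 10.2), so ABHD5 was the more abundant of both in every pig.

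G0S2 (ENSSSCG00000015617, chromosome 9 from 133287065 to 133288066), the inhibitor of PNPLA2, was the most variable of the tested members. In group R it was counted at 12.4, 17.5, 7.51, 16.2 and 3.84 CPM. In group B, pigs B1 and B5 were at 60.3 and 40.3 CPM, while B2, B3 and B4 were at 2.11, 0 and 1.05 CPM, which rest on 2, 0 and 1 reads. The count of 0 among the 1490944 reads of B3 allows a level of up to 2.01 CPM, for counting error only. Group B thus held the pigs with the least G0S2 and a pig among those with the most. In group C the lowest pig was at 6.44 CPM, the median at 40.9 CPM and the highest at 78.3 CPM, and 4 of 6 exceeded each pig of group R. The means were 11.5 ± 5.79 CPM in group R, 20.8 ± 27.9 CPM in group B and 41.6 ± 29.8 CPM in group C (SD). Group C was 3.57-fold higher than group R (log2 fold change 1.84 ± 0.52, SE), which did not pass the test (edgeR adjusted p = 0.140, unadjusted p = 0.00218). This call depended on the settings, since the edgeR adjusted p was 0.00144 with no filter on low counts and 0.0452 without C1. The log2 fold change was 0.85 ± 0.84 (SE, edgeR adjusted p = 0.681) for group B against group R, and it turned to -0.19 without B1. For group C against group B it was 0.99 ± 0.79 (SE, edgeR adjusted p = 0.650). The ratio of ABHD5 to G0S2 reads had a median of 10.3, 153 and 4.65 in groups R, B and C, with B3, which had no G0S2 read, ranked highest, and ranged from 4.93 to 456 in the other 4 pigs of group B.

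PNPLA3 and MGLL were sparsely counted, did not pass the filter on low counts and were tested only with no filter. PNPLA3 (ENSSSCG00000027266, chromosome 5 from 5075608 to 5092599), a relative of PNPLA2 that acts on triglyceride and retinyl esters, had 0 to 18 reads per pig, with means of 5.94 ± 6.55 CPM in group R, 2.31 ± 2.31 CPM in group B and 3.32 ± 3.47 CPM in group C (SD). Its highest value, 17.3 CPM, was that of R5. MGLL (ENSSSCG00000024134, chromosome 13 from 72480395 to 72568964), the monoglyceride lipase, had 0 to 9 reads per pig and means of 1.84 ± 1.61, 3.00 ± 1.97 and 1.20 ± 0.335 CPM in groups R, B and C (SD). The highest MGLL value, 5.75 CPM, was that of B3. MGLL overlaps ABTB1 and PNPLA3 overlaps LOC110260616 in the annotation, and since the strand setting of the counting is not stated, reads of overlapping genes may not be told apart. With no filter, PNPLA3 gave a log2 fold change of -1.41 ± 0.64 for group B against R (SE, edgeR adjusted p = 0.400), and MGLL gave -1.25 ± 0.66 for group C against B (SE, edgeR adjusted p = 0.589), the smallest p of each between diets.

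Among the coats, PLIN2 (ENSSSCG00000035863, chromosome 1 from 203683867 to 203709277), the perilipin found on droplets of most cell types and often used as a gauge of hepatic fat, varied widely within each diet. In group R it was counted at 45.9, 25.8, 35.0, 80.0 and 15.4 CPM. In group B it was counted at 84.4, 47.6, 45.4, 56.9 and 173 CPM. Pig B5 stood well above the others, and the rest of the group overlapped with group R. In group C the lowest pig was at 16.1 CPM, the median at 56.03 CPM and the highest at 172 CPM. The means were 40.4 ± 24.8, 81.5 ± 53.5 and 70.1 ± 55.4 CPM in groups R, B and C (SD). Group B was 1.99-fold higher than group R (log2 fold change 0.99 ± 0.42, SE), a difference that did not pass the test (edgeR adjusted p = 0.267, unadjusted p = 0.0297). It passed with no filter on low counts (edgeR adjusted p = 0.0487), and the log2 fold change was 0.53 without B5. Group C against group R gave 0.82 ± 0.46 (SE, edgeR adjusted p = 0.473), or 0.31 without C5. Group C against group B gave -0.18 ± 0.46 (SE, edgeR adjusted p = 0.913). PLIN2 overlaps LOC100737553 in the annotation.

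PLIN3 (ENSSSCG00000038954, chromosome 2 from 73970149 to 73995314), a perilipin that moves between the cytosol and small, growing droplets, was the steadier coat. It was counted at 66.4, 46.4, 37.5, 57.7 and 64.3 CPM in group R and at 42.97, 40.2, 60.1, 25.3 and 83.8 CPM in group B, and from 27.5 to 65.8 CPM (median 46.4 CPM) in group C. The groups overlapped throughout. The log2 fold changes were -0.12 ± 0.28 for group B against R, -0.25 ± 0.21 for group C against R and -0.13 ± 0.27 for group C against B (SE, edgeR adjusted p = 0.889, 0.674 and 0.887). The ratio of PLIN2 to PLIN3 reads had a median of 0.692, 1.96 and 1.47 in groups R, B and C, with ranges that overlapped between all diets.

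PLIN5, the perilipin of tissues that burn much fat, was tied to different identifiers by the gene name table and by the study. The gene name table assigns the symbol to ENSSSCG00000013513, whereas the study's own table names ENSSSCG00000013514 as PLIN5 and describes it as a protein with an LRRCT domain, a leucine-rich repeat end that perilipins do not carry. The gene name table gives ENSSSCG00000013514 no symbol. RefSeq places PLIN5 on chromosome 2 from 74304613 to 74314314 and, 1495 bases away, LRG1, a secreted leucine-rich protein of the acute phase response, from 74300598 to 74303117, and no identifier is paired with LRG1 in the table. Which gene the reads of ENSSSCG00000013514 come from was not tested, and it is called by its identifier here.

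ENSSSCG00000013513 was counted with 3 to 24 reads per pig. Its levels were 8.02, 12.4, 11.3, 12.2 and 10.6 CPM in group R, 6.79, 5.28, 15.3, 9.48 and 16.3 CPM in group B and 4.35 to 11.7 CPM (median 8.29 CPM) in group C. The groups overlapped, and the log2 fold changes of -0.00 ± 0.36 for group B against R, -0.38 ± 0.29 for group C against R and -0.37 ± 0.35 for group C against B did not pass the test (SE, edgeR adjusted p = 0.999, 0.645 and 0.707). ENSSSCG00000013514 was counted at 220, 340, 240, 327 and 216 CPM in group R and at 317, 226, 344, 379 and 293 CPM in group B. In group C it lay between 113 and 196 CPM (median 166 CPM), below every pig of the other diets. The means were 269 ± 59.9, 312 ± 57.8 and 161 ± 30.0 CPM in groups R, B and C (SD). The level in group C was 0.603 times that in group R (log2 fold change -0.73 ± 0.17, SE) and 0.520 times that in group B (log2 fold change -0.94 ± 0.17, SE), both comparisons for which the study had listed it. Group B against group R, for which it had not been listed, gave 0.22 ± 0.19 (SE, edgeR adjusted p = 0.632). Per liver, ENSSSCG00000013514 held 16.8 to 46.8 times as many reads as ENSSSCG00000013513, with medians of 26.9, 40.0 and 19.7 in groups R, B and C. With edgeR, its filter and each pair of diets fitted on its own with all its pigs, neither identifier passed in a comparison with group C. With all 16 pigs in 1 fit, ENSSSCG00000013514 passed for group C against group B.

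CIDEB (ENSSSCG00000001989, chromosome 7 from 74982941 to 74985776), the CIDE protein of hepatocytes, which acts in the lipidation of very low density lipoprotein, was among the steadiest members. It was counted at 89.7, 114, 125, 123 and 132 CPM in group R, at 109, 119, 107, 65.3 and 135 CPM in group B and from 58.5 to 128 CPM (median 101 CPM) in group C. The groups overlapped, and the log2 fold changes of -0.12 ± 0.20, -0.22 ± 0.18 and -0.09 ± 0.21 for group B against R, C against R and C against B did not pass the test (SE, edgeR adjusted p = 0.829, 0.681 and 0.895). CIDEB overlaps LTB4R2 and NOP9 in the annotation. CIDEC (ENSSSCG00000011557, chromosome 13 from 66141836 to 66149801), its relative that drives droplet fusion in fat cells and in fatty liver, had 0 to 9 reads per pig and was tested only with no filter, where it passed in no comparison (edgeR adjusted p = 0.984 for group B against R, 0.693 for C against R and 0.673 for C against B). Its means were 3.81 ± 2.12, 3.49 ± 2.19 and 2.17 ± 1.77 CPM in groups R, B and C (SD). CIDEC overlaps LOC106505669 in the annotation.

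Of the 11 identifiers, 8 passed the filter on low counts in each comparison, and the tests were fitted over all genes. The 8 include ENSSSCG00000013514, which may not be a droplet gene. For group B against group R, 1 of these 8 (ABHD5) passed the adjusted threshold of 0.05, beside 1.11% of all 6318 genes tested. ABHD5 was not past the threshold without R1, R3, R5 or B4 (log2 fold changes 1.34, 1.38, 1.25 and 1.15). For group C against group R and for group C against group B, 0 of 8 passed with edgeR, beside 0.138% of 6528 and 0.0587% of 6812 genes. An unadjusted p under 0.05 was reached by 2, 3 and 2 of the 8 in the 3 comparisons, beside 15%, 13% and 11.5% of all genes. For the last 2 comparisons DESeq2, the tool of the study, called 2 (ABHD5 and ENSSSCG00000013514) and 1 (ENSSSCG00000013514), beside 93 and 53 over all genes. The study had listed these identifiers for the same comparisons, so these calls are not separate evidence. Without B2, ENSSSCG00000013514 passed for group C against group B with edgeR (log2 fold change -1.04), and without C1, G0S2 passed for group C against group R. Groups did not overlap in 1 of the 8 in each comparison, beside 4.59%, 1.5% and 1.37% of all genes. Since ABHD5 and ENSSSCG00000013514 entered the set through these comparisons, the counts describe the set and carry no further weight. The other 6 tested members passed in no diet comparison with edgeR, its filter and all pigs.

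**Figure D2:**
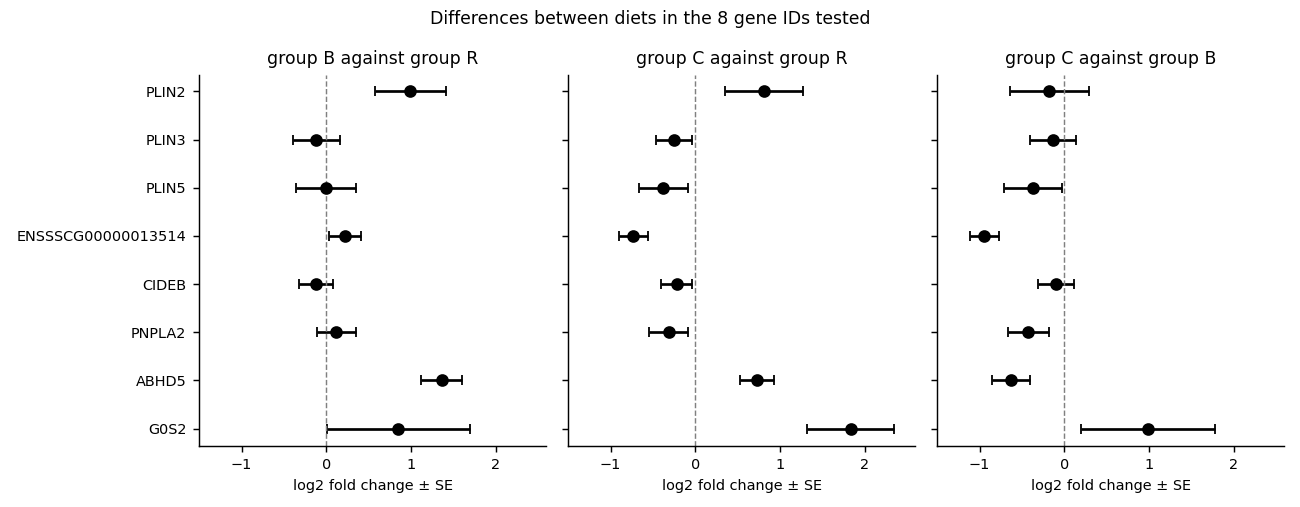
Log2 fold change of the 8 tested identifiers in each of the 3 diet comparisons, with bars for ± SE. ABHD5 lies highest for group B against group R (1.36), G0S2 has the longest bars (0.52 to 0.84), and ENSSSCG00000013514 is lower in group C than in both other groups (-0.73 and -0.94).

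The members were also set against each other across the 16 pigs, on log2 CPM, as a description that shares the libraries and their depth. Over the 28 pairs of the 8 tested identifiers, Pearson's r ran from -0.70 to 0.61 with a median of 0.05, so the set as a whole did not move as a block. A triangle of PLIN2, G0S2 and PNPLA2 stood out by its values. PLIN2 and G0S2 were higher in the same livers (r = 0.55, Spearman's rho = 0.60, and r = 0.72 with the diet means taken off). PNPLA2 was lower in livers with more PLIN2 (r = -0.64, rho = -0.68, and r = -0.81 with the diet means taken off). PNPLA2 was likewise lower in livers with more G0S2 (r = -0.70, rho = -0.67, and r = -0.60 with the diet means taken off). Without the 2 pigs farthest from the median of the first gene the r values were 0.42, -0.51 and -0.61, and in the 6 pigs of group C alone they were 0.85, -0.93 and -0.86. The lipase thus ran opposite to its inhibitor and to PLIN2 across livers. Within single diets the direction held for PLIN2 in each, while PNPLA2 and G0S2 gave r = -0.03 in the 5 pigs of group R. For ABHD5 the r with PLIN2 was 0.38 over all pigs and 0.08 with the diet means taken off, but 0.91 in the 5 pigs of group R, where ABHD5 also gave 0.74 with G0S2 and -0.63 with PNPLA2. PLIN3 and PLIN5 were higher in the same livers (r = 0.61, rho = 0.58), though not in group R (r = -0.55).

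**Figure D3:**
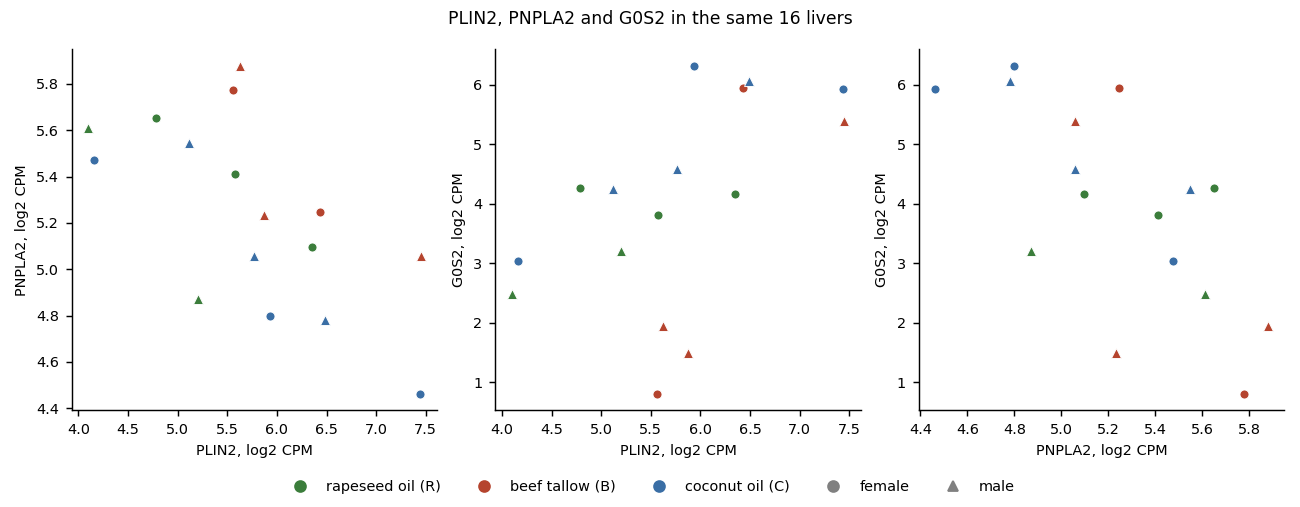
Pairs of members across the 16 livers, in log2 CPM on both axes, with diets as colours and sexes as symbols. Livers with more PLIN2 had more G0S2 (r = 0.55) and less PNPLA2 (r = -0.64), and PNPLA2 and G0S2 run opposite to each other (r = -0.70), least so in group R.

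The genes with the pattern most like each member over the 16 pigs were sought among 6891 genes, by Pearson's r of log2 CPM. ABHD5 was most like TOPORS (r = 0.90), BAG3 (r = 0.90) and ELL2 (r = 0.88), and with the diet means taken off these were 0.81, 0.86 and 0.84. BAG3 is a co-chaperone of HSP70 and ELL2 an elongation factor of RNA polymerase II. PLIN2 was most like ACSL1 (r = 0.84, or 0.81 with the diet means taken off), the acyl-CoA synthetase that activates long-chain fatty acids, ahead of ATP2B2 (r = 0.80) and COG3 (r = 0.79). PNPLA2 was most like FZD5 (r = 0.80), P4HB (r = 0.78) and NDRG2 (r = 0.77). G0S2 was most like MRPS30 (r = 0.85), PSMD11 (r = 0.84) and HSPE1 (r = 0.84), the last of which encodes a mitochondrial chaperonin. PLIN3 was most like MATR3 (r = 0.88), OSGIN1 (r = 0.84) and FOXA3 (r = 0.82), and PLIN5 like MAP7D1 (r = 0.78), PLEKHO2 (r = 0.74) and PIGL (r = 0.74). CIDEB was most like LARP1B (r = 0.80), SLC1A4 (r = 0.77) and CMYA5 (r = 0.77), and the value for SLC1A4 fell to 0.04 without the 2 farthest pigs.

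ENSSSCG00000013514 was most like ZNRF1 (r = 0.89), EIF2AK3 (r = 0.86) and ITIH4 (r = 0.85), and with the diet means taken off these were 0.77, 0.60 and 0.67. EIF2AK3 encodes PERK, a sensor of stress in the endoplasmic reticulum, and ITIH4 a plasma protein of the acute phase response. Over 13 acute phase genes its r ran from -0.41 to 0.85 with a median of 0.27, with LBP at 0.70 and FGG at 0.67, or 0.30 and 0.37 with the diet means taken off. That of PLIN5 ran from -0.57 to 0.36 with a median of -0.01 and that of ABHD5 from -0.63 to 0.65 with a median of -0.02. The r between both identifiers was 0.61 (rho = 0.54), and 0.67 with the diet means taken off, the same as for ITIH4.

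**Figure D4:**
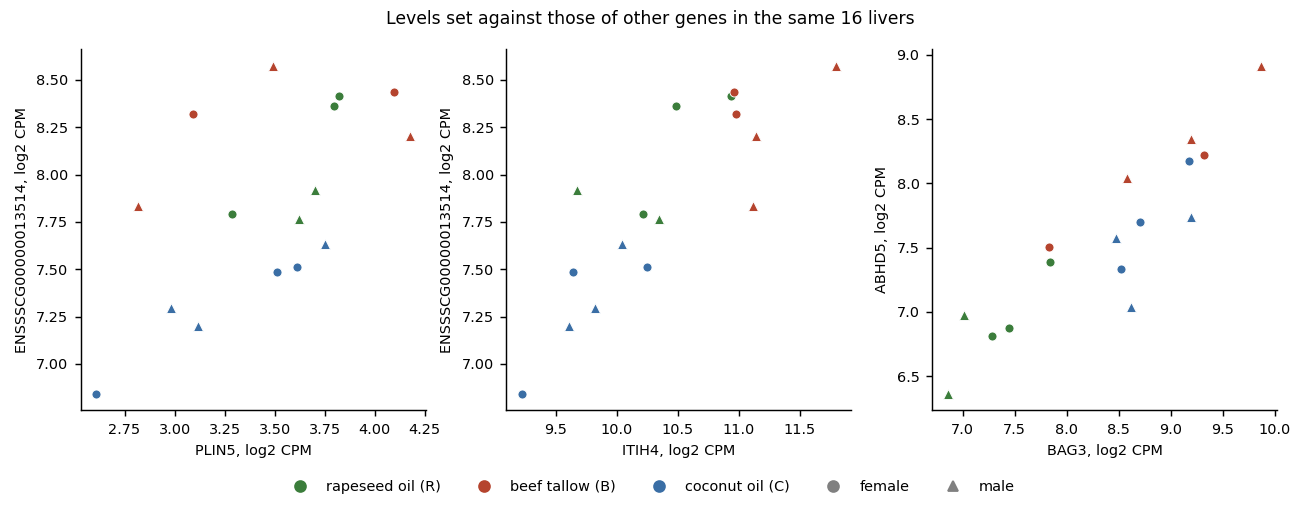
ENSSSCG00000013514 against PLIN5 and against ITIH4, and ABHD5 against BAG3, in log2 CPM over the 16 pigs, with diets as colours and sexes as symbols. The r over all pigs is 0.61 for PLIN5, 0.85 for ITIH4 and 0.90 for BAG3, and 0.67, 0.67 and 0.86 with the diet means taken off. ITIH4 and BAG3 were among the highest r of 6891 genes, and PLIN5 was set by its symbol.

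The sexes, gilts and barrows, were compared over all 16 pigs with diet in the fit. None of the 8 tested identifiers passed with edgeR and its filter, beside 0.0786% of 6365 genes. The count was also 0 by DESeq2, RLE normalization, no filter, no diet term or with 1 pig left out. With the filter on low counts 0 of the 8 had an unadjusted p under 0.05, beside 312 of the 6365 genes. With no filter G0S2 had an unadjusted p of 0.00073 (edgeR adjusted p = 0.214) and PNPLA3 one of 0.0382 (edgeR adjusted p = 0.891). G0S2 had the largest difference, with a log2 fold change of -0.78 ± 0.62 for males against females (SE, edgeR adjusted p = 0.919). PLIN2 gave -0.32 ± 0.41 (SE, edgeR adjusted p = 0.961) and ABHD5 -0.05 ± 0.20 (SE, edgeR adjusted p = 0.988). For the interaction of diet and sex, edgeR called 0 genes in each pair of diets, 0% of those tested, while 250, 260 and 240 genes had an unadjusted p under 0.05, and with no filter on low counts 13, 24 and 10 genes were called. The smallest unadjusted p of a member was 0.0804, that of ABHD5 in groups B and C. Each sex within a diet holds only 2 or 3 pigs, so differences of this kind were hardly detectable.

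Other genes of the same pathway were taken from lists. Of 17 genes of triglyceride synthesis, 8 were tested in each comparison. For group B against group R 1 of them passed, beside 1.11% of all genes. It was LPIN2, a phosphatidate phosphatase that makes diacylglycerol. DESeq2, the tool of the study, called LPIN2 for groups B and C against R, so LPIN2 may be among the diet genes known beforehand. Its mean was 118 ± 41.03 CPM in group R, 238 ± 58.7 CPM in group B and 205 ± 43.8 CPM in group C (SD). Groups R and B did not overlap, beside 4.59% of all genes. The log2 fold change was 1.01 ± 0.24 for group B against R (SE, edgeR adjusted p = 0.0495), which was not past the threshold with RLE normalization or without R1, R3, R5, B1, B2, B4 or B5, and 0.81 ± 0.20 for group C against R (SE, edgeR adjusted p = 0.104). Of the other 7, 6 had a positive log2 fold change for group B against R, beside 3252 of all 6318 genes. The median of the 8 was 0.46 against 0.01 over all genes. For group C the medians were 0.12 against group R and -0.19 against group B, with 0 of 8 passing, although LPIN1, the relative of LPIN2, gave 0.73 ± 0.30 against group R (SE, edgeR adjusted p = 0.299), and GPAT4, an acyltransferase of the first step, -0.83 ± 0.39 against group B (SE, edgeR adjusted p = 0.434). ACSL1, which PLIN2 resembled most, gave -0.39 ± 0.26 for group C against B (SE, edgeR adjusted p = 0.592).

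Among 26 genes of droplet formation and other droplet proteins, 13, 14 and 14 were tested for group B against R, C against R and C against B, and 0 passed with edgeR, with medians of 0.19, 0.12 and -0.09 and with 2, 1 and 1 under an unadjusted p of 0.05, beside 15%, 13% and 11.5% of all genes. FITM2, which partitions new triglyceride into droplets, was at 5.59 CPM in group R and 12.8 CPM in group C (log2 fold change 1.17 ± 0.43, SE, edgeR adjusted p = 0.269). Group B was at 12.7 CPM, like group C (log2 fold change -0.00 ± 0.37 for group C against B, SE, edgeR adjusted p = 0.997). For group B against R, FITM2 did not pass the filter on low counts, and its levels rest on few reads. HSD17B11, an abundant droplet dehydrogenase, was at 1827 CPM in group R and 1448 CPM in group B (log2 fold change -0.34, edgeR adjusted p = 0.314). UBXN4 gave 0.46 for group B against R (edgeR adjusted p = 0.248), and VMP1, which acts in the release of droplets and lipoproteins from the endoplasmic reticulum, -0.40 for group C against B (edgeR adjusted p = 0.421). Among 20 other lipases and acyl hydrolases, 6, 7 and 8 were tested and 0 passed, with 0 under an unadjusted p of 0.05 and medians of -0.05, 0.15 and 0.02. LIPC, the hepatic lipase of plasma lipoproteins, gave 0.24 for group C against R (edgeR adjusted p = 0.505) and 0.30 against B (edgeR adjusted p = 0.522), and LIPG, the endothelial lipase, gave 0.81 ± 0.60 for group B against R (SE, edgeR adjusted p = 0.557). LIPE, the hormone-sensitive lipase that cleaves diglyceride after PNPLA2, had a mean of only 1.85 CPM.

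**Figure D5:**
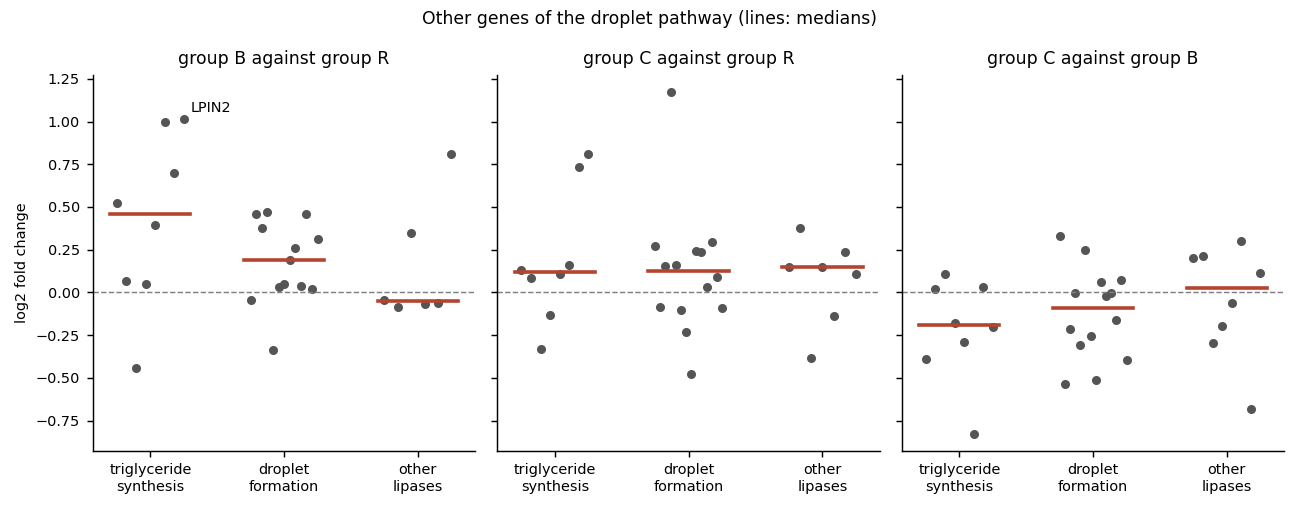
Log2 fold change of each tested gene of the lists of triglyceride synthesis, droplet formation and other lipases, in the 3 diet comparisons, with lines for the medians and with genes that passed the adjusted threshold named. LPIN2 (1.01, group B against group R) is the only gene of these 3 lists that passed.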

How the data were processed

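Liver RNA of 16 pigs was sequenced from mRNA 3′ ends, 1 library per pig. According to the labels and the study's methods, the authors used FastQC for read quality, trimmed, aligned to Sscrofa11.1 with TopHat and assigned reads to genes with HTSeq, and deposited raw counts, whole numbers that were not normalized. The strand setting of the counting is not given in the sources used here. The 5 tallies of unassigned reads were left out of library sizes and tests. The column of symbols in the name table and RefSeq's Sscrofa11.1 annotation gave names and positions.

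Each pair of diets was fitted on its own with edgeR 4.0.16 under R 4.3.3, by its quasi-likelihood test (TMM, filterByExpr with a minimum count of 10 and total of 15, no covariate). P-values were adjusted by Benjamini-Hochberg over all genes tested, with a threshold of 0.05. The SE is the log2 fold change divided by the square root of F. Sex was tested over all pigs with diet in the fit, and the interaction with diet in each pair. CPM were computed with TMM library sizes, and log2 CPM with a prior count of 2. Correlations across pigs are descriptions. The pipeline was tested on simulated data. Depth was 705669 to 1767671 reads on genes, and counts of 0 and their limits cover counting error only. No identical libraries were found among 120 pairs.

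The members, lists and tests were chosen with earlier results of these data known. The named genes were every member, list genes past the threshold or otherwise the 2 with the smallest p, and the 3 genes with the highest r to each member. LIPE, and the acute phase genes beside ENSSSCG00000013514, were chosen after their values were seen. Alternatives were DESeq2 1.42.0, RLE normalization, other filters, all pigs in 1 fit, sex as a covariate, a replicate block, pigs left out in turn and thinned counts. DESeq2 without independent filtering was chosen after the data were seen.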

Additional observations from a re-analysis of the deposited data

How the results depend on the processing

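For group B against group R, 1 member passed, and 2 with no filter on low counts (ABHD5 and PLIN2), while leaving out 1 pig at a time gave 0 to 1. For group C against group R, 0 members passed, but 2 with DESeq2, 1 with DESeq2 without independent filtering, 3 with no filter (ABHD5, G0S2 and ENSSSCG00000013514) and 0 to 1 with 1 pig left out. For group C against group B, 0 passed, but 1 (ENSSSCG00000013514) with DESeq2, with DESeq2 without independent filtering, with no filter, with at least 10 reads in every pig and with all 16 pigs in 1 fit, and 0 to 1 with 1 pig left out. Of the other lists, 1 gene (LPIN2) passed for group B against group R, 0 with RLE normalization or the replicate block and 0 to 1 with 1 pig left out, and for group C against group R 1 passed with DESeq2 and with no filter instead of 0. The cause of these changes was not tested. Over all genes, 70, 9 and 4 calls became 188, 93 and 53 with DESeq2, 125, 40 and 18 with DESeq2 without independent filtering, and 190, 82 and 22 with no filter.

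Small differences changed sign when 1 pig was left out, with log2 fold changes for group B against R of -0.21 to 0.14 (PLIN5), -0.19 to 1.21 (G0S2), -0.0042 to 0.21 (PNPLA2), -0.36 to 0.0493 (PLIN3) and -0.22 to 0.0149 (CIDEB), and for group C against B of -0.68 to 0.28 (PLIN2), -0.29 to 0.11 (PLIN3) and -0.23 to 0.0131 (CIDEB). For males against females they were -0.0927 to 0.0911 (PNPLA2), -0.20 to 0.0589 (ABHD5), -0.0272 to 0.12 (CIDEB), -0.21 to 0.0793 (PLIN5) and -0.60 to 0.12 (PLIN2). PLIN5 turned to 0.0033 for group B against R with sex as a covariate, PNPLA2 to 0.0027 between the sexes with no filter, and ABHD5 to 0.2261 between the sexes without diet in the fit. With no filter the interaction of PLIN3 turned to -0.0026 in groups R and B, 0.01 in R and C and 0.0402 in B and C, and that of CIDEB to 0.052 in B and C.

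Same-numbered pigs did not deviate together (r from -0.25 to 0.145 over the 3 pairs of diets), so the numbers were not taken to pair the pigs. With the replicate block, 1, 0 and 0 members passed, and calls over all genes for group B against R went from 70 to 35. Depth limits the members at 10 CPM or less, with medians of 11 (PLIN5), 3 (PNPLA3), 3.5 (CIDEC) and 1.5 (MGLL) reads per pig.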
